A study of Homo sapiens with 3 samples.

Results

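Solute carriers, whose genes carry symbols that begin with SLC, are membrane proteins that move amino acids, sugars, ions, metals, nucleotides and vitamins across the plasma membrane and the membranes of organelles. The RNA of these genes recovered with CTCF, a zinc-finger protein that binds DNA and shapes chromatin loops, was described in U2OS, a human osteosarcoma cell line. Members were the protein-coding genes of the deposited table whose Ensembl identifier maps to a symbol made of SLC and a digit, which gave 234 of 17201 listed genes and 234 of 12220 listed protein-coding genes. The rule goes by name alone. It took in 3 genes whose symbols do not name a transporter: SLC4A1AP, for an adaptor protein named after the anion exchanger SLC4A1, SLC7A6OS, which lies opposite SLC7A6, and SLC26A10P, which now carries a pseudogene symbol.

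The assay was PAR-CLIP, in which living cells take up 4-thiouridine, ultraviolet light ties the labelled RNA to proteins in contact with it, and the RNA left on the precipitated protein is sequenced. U2OS cells received 4-thiouridine at 400 µM for 16 to 24 h and 400 mJ/cm2 of light at 365 nm, and CTCF was precipitated from nuclear lysates. The labels name 3 samples, namely 2 biological replicates made with different antibody lots and the merge of their sequencing data, and the table of the merge is the one analysed here. There is 1 condition and 1 value per gene, so the values below have no replicate error, no test was possible, and no p-value is given. RNA abundance and a control precipitation were not analysed here, so a count is RNA recovered with CTCF and not a preference of CTCF. In bulk material such as this, RNA in few cells and little RNA in each cell cannot be told apart. Of 10 bone and mesenchymal marker genes, 8 were listed (80%), against 60.6% of all annotated protein-coding genes. They ran between FN1 at 1277 counts and ALPL at 8 counts, with RUNX2 at 164 and VIM at 67. The smallest count listed for any gene was 6. COL1A2 and TWIST1 were not listed.

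Carriers work in families that share a fold or a substrate. Some reach the cell surface only with a partner: SLC3A2, the heavy chain of CD98, holds light chains such as SLC7A5, an exchanger of large neutral amino acids, in the plasma membrane. Family 25 sits in the inner mitochondrial membrane, families 30 and 39 move zinc out of and into the cytosol, and family 35 brings nucleotide sugars into the Golgi. Many carriers are confined to kidney, liver, gut or nerve cells, while others supply almost every dividing cell.

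SLC genes were listed about as often as other genes, but those listed had lower counts. RefSeq annotates 371 SLC genes that pair with a single Ensembl identifier. Of these, 230 were listed, or 62.0% (95% Clopper-Pearson interval 56.8 to 67.0%), against 60.6% of all 19124 such protein-coding genes. The table starts at 6 counts, so an absent gene had fewer or was not counted. The listed SLC genes had a median of 31 counts, with quartiles of 14 and 70.75, against a median of 43 counts and quartiles of 17 and 105 in the 11986 other protein-coding genes. The ratio of the medians was 0.721. Per kb of interval the medians were 1.06 counts in SLC genes and 1.56 counts in the other genes, a ratio of 0.680. SLC genes made up 1.91% of the listed protein-coding genes and held 1.23% of their summed count, 14000 counts in all.

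Few SLC genes reached high counts. There were 34 with 100 counts or more, 14.5% of the 234 (95% Clopper-Pearson interval 10.3 to 19.7%), against 26.1% of all listed protein-coding genes. In 26 pairs an SLC interval lay inside another listed interval or held one, and the count of the inner gene exceeded that of the outer gene in 0 of them. The outer interval is the longer by construction, and how reads were counted is not given. A gene that overlaps another may hold some of its reads. Another listed gene overlapped 68 SLC genes (29.1%), against 34.7% of all protein-coding genes. Among the 166 SLC genes that overlap none, 16 had 100 counts or more, which is 9.64%, against 23.6% of the 7982 protein-coding genes that overlap none. At the low end, 36 SLC genes had fewer than 10 counts, and 10 stood at the floor of 6, where the 95% Poisson interval runs from 2.20 to 13.1. The Poisson intervals cover counting error only, and molecules copied by PCR are not independent. The Clopper-Pearson intervals for shares of genes treat genes as independent draws, which they are not, and are no test against other genes.

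**Figure D1:**
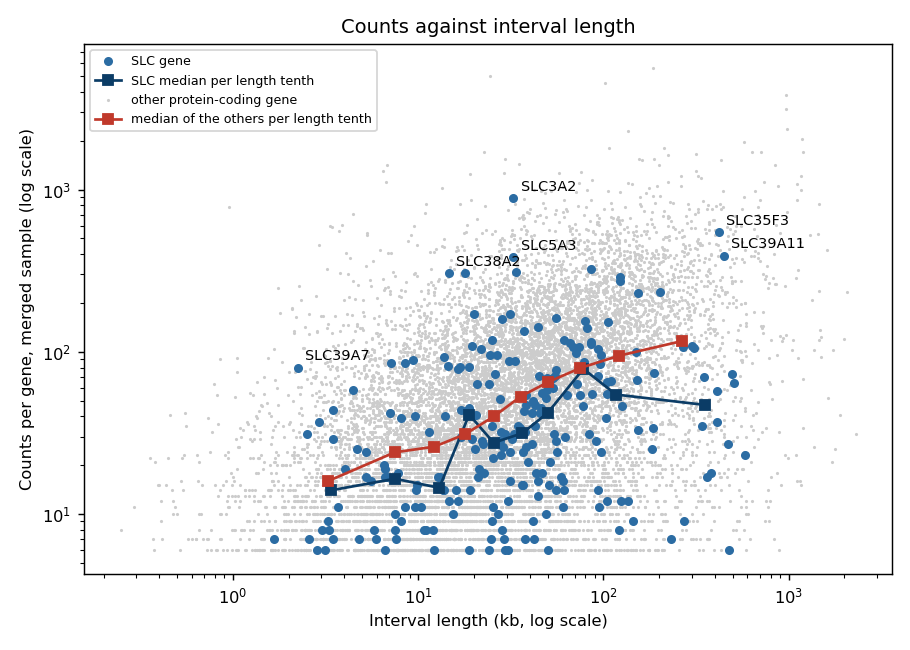
Counts in the merged sample against interval length in kb, both on log axes, for the 234 SLC genes (blue) and the other listed protein-coding genes (grey). Squares join the medians of 10 equal groups by length, and the SLC median was below that of the other genes in 9 of the 10.

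The lower counts were seen at most interval lengths. SLC intervals had a median of 34.1 kb, against 30.0 kb for the other protein-coding genes. When all protein-coding genes were divided into 10 groups by length, the SLC median was below that of the other genes in 9 groups. The gap was small in group 8, at 78.5 against 79.5 counts, and in group 1, at 14 against 16. In the group of the longest intervals, 22 SLC genes had a median of 47 counts, against 116.5 counts in the others. Median lengths in that group were 356 kb for SLC genes and 266 kb for the others. The exception was the fourth group, where 21 SLC genes had a median of 41 counts, against 31 counts in the others. Across SLC genes, Spearman's rho between count and length was 0.351, against 0.434 across all protein-coding genes, and genes are not independent replicates. Each gene was also placed among protein-coding genes of similar length, in 50 groups. The median SLC gene lay at percentile 35.9, 77 of 234 (32.9%) lay above percentile 50, against 49.9% of all protein-coding genes, and 11 (4.70%) lay above percentile 90, against 9.88% of all.

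**Figure D2:**
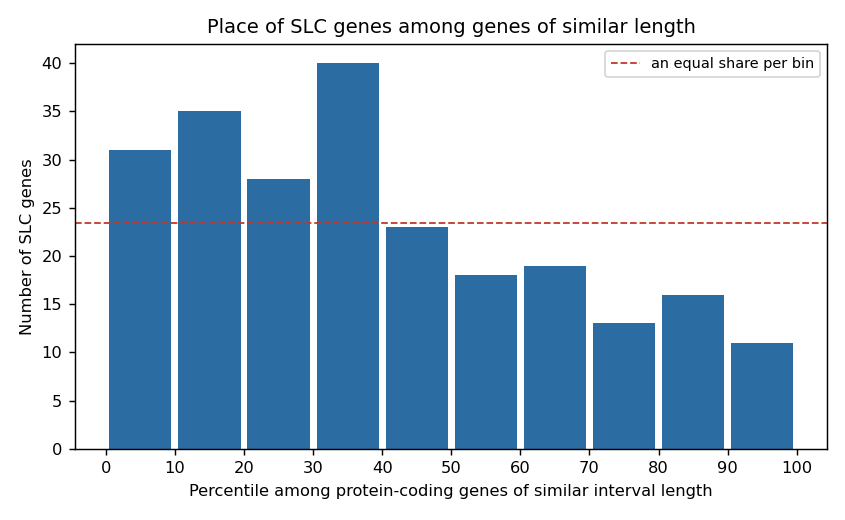
Number of SLC genes (y axis) by their percentile among listed protein-coding genes of similar interval length (x axis, bins of 10), with a dashed line at an equal share per bin. The first 4 bins hold 31, 35, 28 and 40 genes and the last holds 11.

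The summed count rested on a small number of carriers. The 10 highest held 28.7% of it and the 20 highest 40.99%. SLC3A2 came first with 888 counts (95% Poisson interval 831 to 948) on chromosome 11 (62623574 to 62656265; all positions in the table's build, hg19), and alone held 6.34%. Its 27.2 counts per kb also put it second of the 234 by that measure, and it lay at percentile 99.8 for its length. The next listed gene, the snoRNA host SNHG1 with 286 counts, ended 0.866 kb away. The next by count were long genes. SLC35F3, a member of the nucleotide-sugar family, had 546 counts (501 to 594) over 420 kb of chromosome 1, and SLC39A11, a zinc transporter, had 391 counts (353 to 432) over 447 kb of chromosome 17. Per kb they had 1.30 and 0.875 counts and ranked 93 and 136. Neither overlaps a listed gene.

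**Figure D3:**
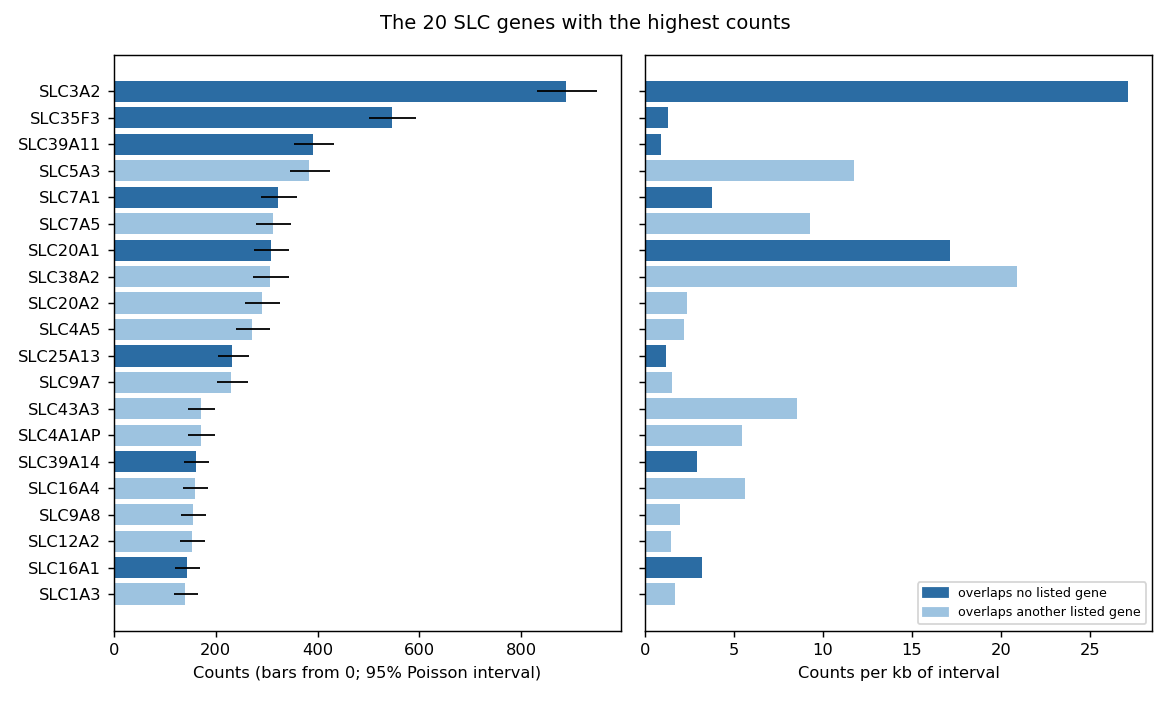
Counts with 95% Poisson intervals (left) and counts per kb of interval (right) for the 20 SLC genes with the highest counts, with pale bars for genes that overlap another listed gene. SLC35F3 and SLC39A11 follow SLC3A2 by count but have 1.30 and 0.875 counts per kb.

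Short carriers led per kb. SLC39A7, which releases zinc from the endoplasmic reticulum, had 80 counts over 2.25 kb, or 35.6 counts per kb, and overlaps RXRB, which had 19 counts. The SLC39A7 interval was 0.630 times as long as its RefSeq gene. After SLC3A2 came SLC38A2, a sodium-coupled carrier of small neutral amino acids, with 307 counts and 20.9 counts per kb. SLC20A1, a sodium-phosphate cotransporter, had 308 counts and 17.1 counts per kb. SLC39A1, a zinc importer of the plasma membrane, had 58 counts and 12.96 counts per kb, over an interval 0.493 times as long as its RefSeq gene. SLC38A2 and SLC20A1 followed SLC3A2 in place for their length too, at percentiles 98.6 and 97.8.

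The carriers are described next by what they move, in 12 groups of families. Each gene was placed by its family, so a member that moves another substrate stands with its family. SLC66A1 and SLC66A2, with 30 and 52 counts, stood in no group.

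**Figure D4:**
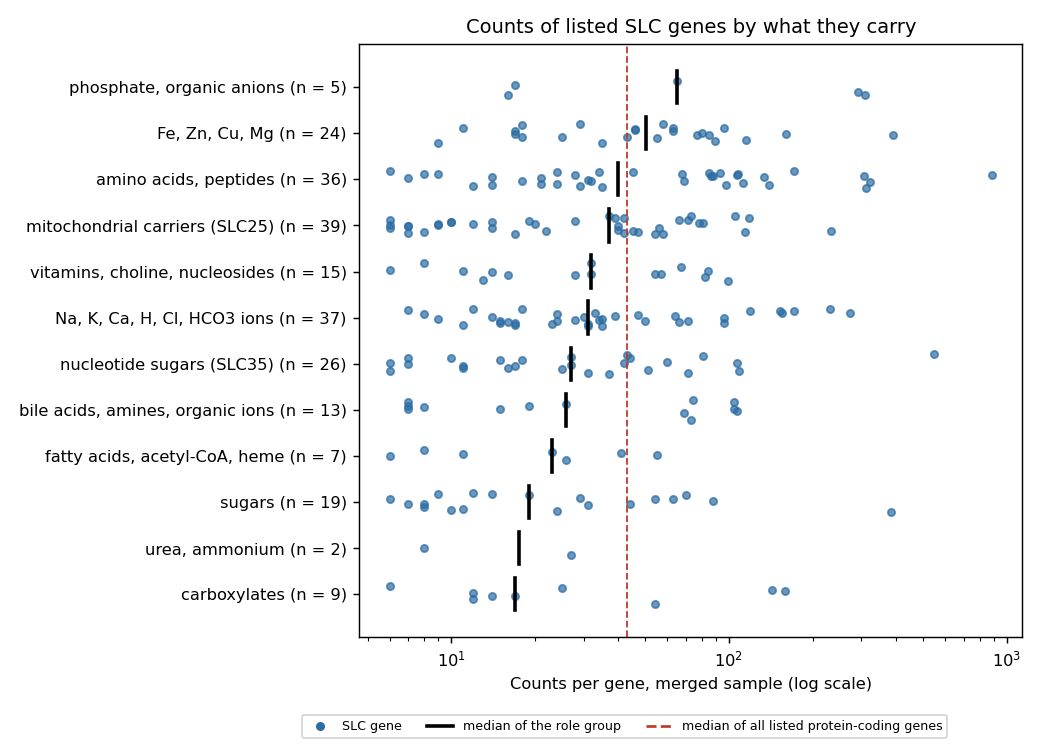
Counts in the merged sample (x axis, log scale) of 232 SLC genes in 12 groups of families by substrate (y axis, with the number of listed genes). Black bars mark group medians, and a dashed line marks 43 counts, the median of all listed protein-coding genes. The medians of 10 groups lie below that line, and those of the phosphate and metal groups, at 65 and 50.5 counts, lie above it.

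Carriers of amino acids and peptides filled 4 of the 10 highest places. Of 66 annotated, 36 were listed, with a median of 40 counts and 1.21 counts per kb. In this group 10 genes had 100 counts or more, or 27.8% (95% Clopper-Pearson interval 14.2 to 45.2%), against 26.1% of all protein-coding genes. Among the 10 are SLC7A6OS, which names no transporter, and SLC43A3, placed here by its family alone. SLC43A3 had 171 counts and overlaps an unnamed protein-coding gene with 169. For their length, 17 of the 36 listed genes lay above percentile 50, or 47.2%, against 49.9% of all, so both shares were near those of all genes. Besides SLC3A2 and SLC38A2, these were led by SLC7A1, an importer of cationic amino acids, at 323 counts (289 to 360), and SLC7A5 at 312 counts (278 to 349). They had 3.74 and 9.28 counts per kb. SLC7A5, on chromosome 16 (87863629 to 87897245), overlaps an antisense gene with 11 counts. Of the other light chains that pair with SLC3A2, SLC7A6 had 134 counts, SLC7A11, the cystine-glutamate exchanger, 86 counts, and SLC7A7 18 counts, while SLC7A8 and SLC7A10 were not listed. SLC7A6 and SLC7A6OS (108 counts) overlap, so part of their counts may be the same reads.

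Other amino acid carriers spread over the whole range. The glutamate transporter gene SLC1A3 had 140 counts, the glutamine carriers SLC38A1 and SLC1A5 had 112 and 93 counts, and SLC6A8 for creatine had 85 counts. SLC1A5 and SLC6A8 had 6.78 and 10.0 counts per kb and lay at percentiles 91.6 and 89.5 for their length. SLC38A9, a lysosomal arginine carrier, had 21 counts. SLC15A2, a proton-coupled peptide carrier, was lowest at 6 counts over 50.01 kb. Family 6, which holds the transporters of neurotransmitters, had 8 of 19 genes listed with a median of 17.5 counts. Its dopamine and noradrenaline transporter genes SLC6A3 and SLC6A2 were not listed.

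Promoters of the amino acid carriers were searched because 4 of these genes stood among the 10 highest and because amino acid shortage is known to act on several of them through ATF4, a transcription factor. The letters TGATGNAAN, which ATF4 and C/EBP proteins bind together, were searched on both strands of RefSeq windows (GRCh38.p14) from 250 bases before to 50 bases after each start site. Windows existed for 191 of the 234 SLC genes. The letters stood in 13 of these genes (6.81%), against 3.05% of listed protein-coding genes and 4.45% of all genes with a window. By window they stood in 14 of 280 (5.00%). The like shares were 2.21% of the windows of all listed protein-coding genes and 3.61% of all 35116 windows. Amino acid carriers were 31 of the 191 SLC genes with a window and 6 of the 13 with a match: SLC3A2, SLC7A1, SLC1A3, SLC38A1, SLC1A5 and SLC1A4. The windows of the 3 that lay above percentile 90 for their length are shown, with the matched letters in capitals. That of SLC3A2 matches on the opposite strand.
SLC3A2 promoter (chr11:62881449-62881748, + strand): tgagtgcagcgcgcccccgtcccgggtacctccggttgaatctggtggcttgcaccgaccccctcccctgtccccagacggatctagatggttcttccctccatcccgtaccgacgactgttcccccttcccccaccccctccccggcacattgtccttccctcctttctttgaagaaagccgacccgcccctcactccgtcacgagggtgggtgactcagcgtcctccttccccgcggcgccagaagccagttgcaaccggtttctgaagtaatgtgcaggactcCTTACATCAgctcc
SLC7A1 promoter (chr13:29595639-29595938, - strand): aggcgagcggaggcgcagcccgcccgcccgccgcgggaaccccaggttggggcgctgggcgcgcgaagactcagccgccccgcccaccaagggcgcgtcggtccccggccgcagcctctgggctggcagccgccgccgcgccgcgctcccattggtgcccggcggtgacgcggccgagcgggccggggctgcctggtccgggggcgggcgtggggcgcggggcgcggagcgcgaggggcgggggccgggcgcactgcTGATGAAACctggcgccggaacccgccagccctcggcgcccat
SLC1A5 promoter (chr19:46784765-46785064, - strand): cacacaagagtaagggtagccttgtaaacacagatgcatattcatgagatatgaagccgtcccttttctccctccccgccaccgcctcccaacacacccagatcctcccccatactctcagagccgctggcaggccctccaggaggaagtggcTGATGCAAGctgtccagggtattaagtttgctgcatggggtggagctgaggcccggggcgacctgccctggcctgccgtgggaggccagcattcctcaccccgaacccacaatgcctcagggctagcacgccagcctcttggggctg
The match begins 37 bases into the transcript that starts within SLC3A2 and 8 bases into that of SLC7A1, and 97 bases before a downstream start site in SLC1A5. SLC3A2, SLC7A1 and SLC1A5 had 888, 323 and 93 counts. The 13 genes with a match had a median of 93 counts, against 29.5 counts in the 178 without, and for their length they lay at a median percentile of 49.4, against 35.6, so that those with a match stood at the middle of all protein-coding genes. In all, 10 motifs were searched, with the counts known, and this one was picked from them. Among the others, CCCTC, the short repeat after which CTCF is named, stood in 82.1% of SLC windows, against 78.3% of the windows of listed protein-coding genes and 71.2% of all windows, and the E-box CACGTG stood in 12.5% of SLC windows, against 9.14% and 7.26%. The core of the CTCF DNA motif was searched in 4 forms, with no common direction. The loosest stood in 5.00% of SLC windows, against 2.64% of listed protein-coding windows. A stricter form stood in 0 of the 280 SLC windows, against 0.439%. The other two stood in 1.07% and 0.357% of SLC windows, against 0.785% and 0.0990%. GGCGCC stood in 28.9% of SLC windows, against 28.3%, and the core of the antioxidant response element in 13.9%, against 10.4%. With C for the first N and no last letter, the ATF4 letters stood in 1.07% of SLC windows, against 0.559% and 0.866%. A match of letters shows neither binding nor a cause. ATF4 itself had 167 counts.

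Of 18 annotated phosphate and organic anion carriers, 5 were listed (27.8%), against 60.6% of all annotated protein-coding genes. The 5 had between 16 and 308 counts. Both genes of family 20, the housekeeping sodium-phosphate cotransporters, were high: SLC20A1 at 308 counts and SLC20A2 at 291 counts. They had 17.1 and 2.36 counts per kb. SLC20A2 overlaps other listed genes, the highest of them SMIM19 with 104 counts. SLC37A3 and SLC37A4, of the sugar-phosphate exchanger family, had 65 and 17 counts. The sialic acid exporter of lysosomes, SLC17A5, was lowest at 16 counts, and was the listed member of a family whose other 8 genes, the vesicular glutamate transporters among them, were not listed. No gene of family 34, the phosphate transporters of kidney and gut, was listed (0 of 3).

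Metal carriers had a median of 50.5 counts and 1.26 counts per kb over 24 listed genes of 33 annotated. The zinc importers of family 39 had a median of 70 counts over 10 listed genes, and 9 of the 10 held between 18 and 391 counts, with SLC39A8 at 11. SLC39A14, which also carries iron and manganese, had 161 counts (137 to 188). In the exporters of family 30, the Golgi transporter SLC30A7 had 115 counts, and SLC30A1, which expels zinc at the cell surface, had 85 counts over 7.18 kb, or 11.8 counts per kb. The manganese exporter SLC30A10 was lowest at 9 counts. By count, the iron and copper carriers SLC40A1 (ferroportin), SLC11A2 and SLC31A1 lay below the group median, at 25, 17 and 35. Per kb they had 1.23, 1.33 and 0.815 counts, against the group's 1.26. The listed interval of SLC11A2 was 0.167 times as long as its RefSeq gene.

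Mitochondrial carriers of family 25 were the most numerous. Of 47 annotated, 38 were listed, and the table held 39 in all. Their median was 37 counts, against 31 counts in the other 195 SLC genes, a ratio of 1.19. With the ranks of the 39 genes giving a 95% interval for their median, the ratio ran from 0.452 to 1.52. That range treats genes as independent draws, which they are not, and holds the other median fixed. Whether mitochondrial and other carriers differ was not tested. Per kb their median was 1.17 counts, against 1.02 counts in the others. In all, 4 reached 100 counts (10.3%), against 15.4% of the other SLC genes and 26.1% of all protein-coding genes. The aspartate-glutamate carrier SLC25A13 led with 233 counts (204 to 265) over 202 kb of chromosome 7, and its close relative SLC25A12 had 66. SLC25A51, the carrier of NAD, had 118 counts but overlaps an unnamed protein-coding gene with 569. SLC25A24, an ATP-magnesium carrier, had 114 counts, and SLC25A26, which imports S-adenosylmethionine, had 105 and overlaps LRIG1 with 172.

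The ADP-ATP carriers SLC25A5, SLC25A6 and SLC25A4 had 37, 20 and 19 counts, or 12.7, 3.04 and 4.70 counts per kb, and the phosphate carrier SLC25A3 had 39 counts. Pseudogenes of SLC25A6 and SLC25A5 were also listed, SLC25A6P2 with 13 counts and SLC25A5P3 with 7 counts. Sequence identity was not computed, and whether reads moved between these genes and pseudogenes was not tested. The mitochondrial iron importers SLC25A37 and SLC25A28 had 56 and 40 counts. The citrate carrier SLC25A1 had 9 counts and the oxoglutarate carrier SLC25A11 was at the floor with 6. The carnitine carrier SLC25A20 was not listed.

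Of the nucleotide-sugar family, 24 of 29 annotated genes were listed, and the 26 listed genes had a median of 27 counts. Its highest members were SLC35F3, SLC35F4 (109 counts over 302 kb) and SLC35F2 (107 counts), which belong to a branch whose substrates are less well known. Of the carriers with known substrates, SLC35D1 of the endoplasmic reticulum had 71 counts, SLC35A3 for UDP-N-acetylglucosamine had 60, the sulfate donor carrier SLC35B2 had 44 and SLC35A1 for CMP-sialic acid had 27. SLC35A2 for UDP-galactose and SLC35C1 for GDP-fucose were lower, at 11 and 10 counts. SLC35A5 and SLC35E4 were lowest, at 6 counts each.

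Ion exchangers and cotransporters had a median of 31 counts and 0.819 counts per kb over 37 listed genes. For their length, 11 of 37 lay above percentile 50 (29.7%), against 32.9% of all SLC genes and 49.9% of all protein-coding genes. The 37 include SLC4A1AP (171 counts, percentile 87.1) and SLC26A10P (17 counts), whose symbols name no transporter. The bicarbonate cotransporter SLC4A5 was highest at 272 counts (241 to 306), but its interval overlaps an unnamed protein-coding gene with 398 counts and MTHFD2. The organellar sodium-proton exchangers SLC9A7 and SLC9A8 had 231 and 155 counts. SLC9A7 overlaps other listed genes, the highest of them the pseudogene CHMP5P1 with 87 counts, and SLC9A8 overlaps an unnamed pseudogene with 23. Among the chloride cotransporters that set cell volume, SLC12A2 had 153 counts, SLC12A7 had 119 and SLC12A4 had 96. WNK1, a kinase that regulates them, had 528 counts, and STK39 and OXSR1, the kinases that act after it, had 59 and 18. The sodium-calcium exchanger SLC8A1 had 35 counts over 340 kb, or 0.103 counts per kb. SLC26A3, a chloride exchanger of the colon, was lowest at 7.

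Sugar and carboxylate carriers had the lowest medians among the groups with 5 or more genes, at 19 and 17 counts. SLC5A3, for the inositol cotransporter, was the single sugar-group gene at 100 counts or more, with 384 counts (347 to 424) on chromosome 21 (35445870 to 35478559). Its coding part lies within the MRPS6 locus, and MRPS6 and a processed transcript with 628 counts overlap its interval. The glucose transporters SLC2A1 and SLC2A3 had 88 and 44 counts, or 2.63 and 2.58 counts per kb, and lay at percentiles 62.9 and 64.3 for their length. The insulin-regulated SLC2A4 was at the floor with 6. In the carboxylate group SLC16A4 had 159 counts and SLC16A1, which carries lactate and pyruvate, had 143. BSG, the surface chaperone of SLC16A1, had 40 counts. The lactate exporter SLC16A3 was not listed, and SLC16A6 was lowest with 6 counts.

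The families of vitamin, choline and nucleoside carriers had a median of 32 counts over 15 genes, none (0) of them at 100 or more. SLC23A2 for ascorbate had 99 counts over 149 kb, SLC29A1, the equilibrative nucleoside transporter, had 82 over 14.5 kb, and the choline carrier SLC44A1 had 67. The folate carriers SLC19A1 and SLC46A1 had 32 counts each, and SLC44A2 was lowest at 6. The concentrative nucleoside transporters of family 28 were not listed (0 of 3). In the group of bile acids, amines and organic ions, 13 of 36 annotated genes were listed (36.1%), against 60.6% of all annotated protein-coding genes. Of its 21 organic ion transporters of family 22, 14 were absent. SLC10A7 was highest with 107 counts over 268 kb, the carnitine transporter SLC22A5 had 73, and SLC10A5, SLC18B1 and SLC22A10 had 7 each. Carriers of fatty acids, acetyl-CoA and heme had a median of 23 counts over 7 genes. In that group SLC49A4 was highest with 55 counts, the fatty acid transporter SLC27A4 had 41, the acetyl-CoA transporter SLC33A1 had 23 and SLC27A6 was lowest with 6. The urea transporters SLC14A2 and SLC14A1 had 27 and 8 counts.

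**Figure D5:**
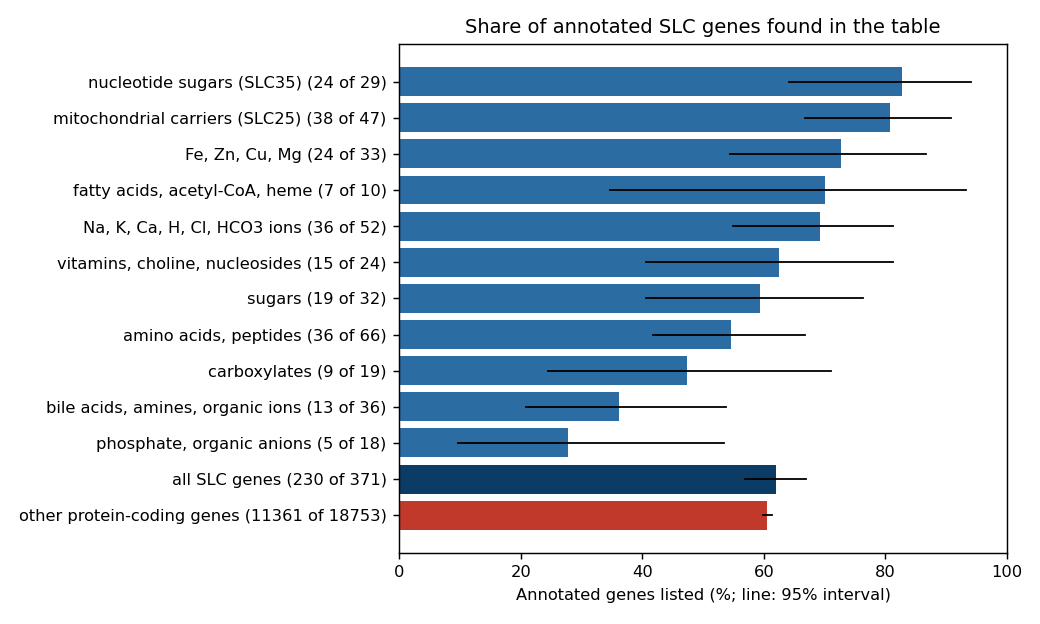
Percentage of annotated genes that were listed (x axis, with 95% Clopper-Pearson intervals as lines) for 11 groups of SLC genes, all SLC genes and the other protein-coding genes (y axis, with listed of annotated genes). The groups run between 82.8% for nucleotide sugars and 27.8% for phosphate and organic anions.

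Carriers that most cells use were listed more often, and at higher counts, than carriers typical of other tissues, a difference that was not tested. Both kinds were taken from lists chosen with earlier results of these data known. Of all annotated SLC genes 62.0% were listed, against 60.6% of all annotated protein-coding genes. Among those listed, 32.9% of SLC genes and 49.9% of all protein-coding genes lay above percentile 50 for their length. Of 20 broadly used SLC genes, 19 were listed, with a median of 86 counts, and 15 lay above percentile 50 for their length. Of 42 SLC genes typical of neurons, kidney, liver, intestine, red cells, pigment cells or thyroid, 9 were listed, with a median of 15 counts, and 2 lay above it. None (0) of the 4 genes of red cells, pigment cells and thyroid was listed, 1 of 10 for kidney (SLC4A4, 18 counts over 382 kb) and 2 of 12 for neurons (SLC18A2 at 26 and SLC6A4 at 9 counts). In intestine, SLC46A1 (32 counts, percentile 61.1) and SLC26A3 (7 counts) were listed of 8. The other gene above percentile 50, and the highest by count, was the liver bile acid importer SLC10A1. SLC10A1 had 104 counts (4.75 counts per kb, percentile 84.3) on chromosome 14 (70242134 to 70264006). It overlaps no listed gene. The nearest one, the splicing factor gene SRSF5, had 197 counts and ends 3.41 kb away, and its part in the SLC10A1 count was not tested. Among the other liver genes, SLC38A4 and SLC2A2 had 14 and 12 counts.

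Other classes of transporters gave medians around that of the SLC genes. The 27 listed ABC transporters, pumps driven by ATP, had a median of 44 counts and of percentile 33.8 for their length, and the 105 ion channel genes had 22 counts and percentile 20.9. The 47 genes of P-type and V-type ATPases had 45 counts and percentile 46.7. The 42 genes of the solute carrier superfamily that carry other names had 35 counts and percentile 42.96. Their shares at 100 counts or more were 14.8%, 15.2%, 36.2% and 23.8%, against the 14.5% of SLC genes and 26.1% of all protein-coding genes. These differences were not tested.

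Besides the protein-coding genes, 22 non-coding genes with SLC symbols were listed: 12 pseudogenes, 5 antisense genes, 4 lincRNAs and 1 processed transcript. SLC12A2-DT, a divergent lincRNA over 143 kb beside SLC12A2, had 155 counts, against 153 counts in SLC12A2. SLC44A3-AS1 had 75 counts, against 54 counts in SLC44A3, and the pseudogene SLC25A24P1 had 42 counts, against 114 counts in SLC25A24. SLC7A5P2, a pseudogene of SLC7A5, had 28 counts over 0.536 kb. Pseudogenes and their parents can exchange reads in alignment. As strand was not given, a gene and an overlapping antisense partner, such as SLC38A2 with SLC38A2-AS1 at 18 counts, cannot be told apart at the shared bases.

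Some intervals did not span the gene. Of the 231 SLC genes with a RefSeq length, 21 had an interval under 0.5 times that length and 8 over 1.5 times it. SLC35D2 had 7 counts over 3.46 kb, 0.0493 times its RefSeq length, and SLC23A3 had 84 counts over 95.5 kb, 11.1 times its RefSeq length, and overlaps NHEJ1 with 75 counts. Counts of such genes belong to the interval listed and not to the gene.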

How the data were processed

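CTCF PAR-CLIP of U2OS cells was deposited as 1 table for the merge of 2 biological replicates. The authors deposited whole-number counts per Ensembl gene interval, with chromosome, start, end, identifier and biotype and no header. Per the submitters' processing notes, Bowtie and bedtools were used with build hg19. Their versions and roles, the use of strand and the unit counted are not given in these sources. The counts summed to 1322047 over 17201 genes, with a minimum of 6, and were not scaled.

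Symbols came from a table of Ensembl identifiers that named 16520 of the 17201; 681, 247 of them protein-coding, carried none and could not be members. RefSeq GRCh38.p14 gave gene lengths and promoter windows. Its 371 SLC genes include SLC2A4RG and SLC30A4-AS1, whose symbols name no carrier. Counts per kb used the listed interval. Percentiles for length were taken within 50 equal groups of listed protein-coding genes. Overlap meant at least 1 shared base, either strand. Python 3.11.15, pandas 2.3.3 and scipy 1.17.1 were used, and ratios and percentiles were tested on simulated data. Intervals are exact, at 95%.

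Members, gene lists and groups were chosen with earlier results of these data known. Named were the 10 highest genes by count, the 5 highest per kb (1 kb or more), the 3 highest percentiles for length, the highest and lowest of each group, listed genes of the lists, overlapping genes and leading non-coding genes. Other family members were named for their role, after their values were seen. Protein identity was not computed. Some genes are not reported here by name.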

Additional observations from a re-analysis of the deposited data

How the results depend on the processing

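The lower position of SLC genes held under the settings tried. The ratio of the SLC median to that of other protein-coding genes was 0.721 and ran between 0.677 (intervals of 5 kb or more) and 0.779 (a minimum of 10 counts), and the median percentile for length was 35.9 and ran between 35.3 and 36.7. The ratio for mitochondrial carriers against other SLC genes was 1.19 and ran between 1.11 and 1.25. These settings reuse much the same genes, and the range from gene ranks, 0.452 to 1.52, is wider. With a minimum of 10 counts, 52.3% of annotated SLC genes were counted as listed instead of 62.0%, and the SLC median was 40.5 instead of 31, since low genes are then left out. Without genes that overlap another, 9.64% of SLC genes had 100 counts or more instead of 14.5%. The 10 highest SLC genes had a share of the SLC sum of 28.7%, which was 33.2% per kb, 37.2% without overlapping genes and 29.6% with intervals of 5 kb or more; fewer genes enter the last 2. Leaving out the 3 members that name no transporter, and intervals far from the RefSeq length, were chosen after seeing the data. No paired analysis was possible because the table holds 1 merged value per gene, and for the same reason leaving out a replicate was not run. Depth limits the 36 SLC genes under 10 counts, whose order is not resolved.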
